A study of Mus musculus with 6 samples.

Results

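Class 3 semaphorins are secreted guidance proteins, and the 7 of the mouse genome (Sema3a to Sema3g) were described here together with 3 of their receptors, the neuropilins Nrp1 and Nrp2 and the plexin Plxnd1. The members were chosen by gene symbol, and all 10 were found among the 31053 genes of the count tables. The data comprised 6 single-cell RNA sequencing libraries of adult wild-type C57BL6 mice, 4 of cortical surface-associated cells (CSA, tissue labelled brain) and 2 of bone-associated cells (BA, tissue labelled dura and skull), and no group carried a transgene or a treatment. Each library pooled several mice of both sexes before it was run on the 10x Genomics Chromium system, so the library was the replicate, and differences between individual mice cannot be measured. The mice were not perfused, so blood cells are part of both preparations. The labels describe a papain digest of the ventricular-subventricular zone for all 6 libraries, whereas the methods of the study describe collagenase and dispase digests of cortical surface and skull connective tissue, and the groups used here are those of the library titles.

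Semaphorins of this class bind a neuropilin on the receiving cell, and the neuropilin recruits a plexin that carries the signal across the membrane. Sema3a binds mainly Nrp1, Sema3f and Sema3g mainly Nrp2, Sema3c binds either neuropilin, and Sema3e binds Plxnd1 directly. The family is best known for repelling growing axons and for shaping vessels, and Nrp1 is also a co-receptor of vascular endothelial growth factor.

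The members lie apart in the genome except for neighbouring groups. In mm10, Sema3d (chr5:12383385-12588948), Sema3a (chr5:13125414-13602565), Sema3e (chr5:14025276-14256689) and Sema3c (chr5:17574281-17730268) are on the plus strand of chromosome 5 within 5.35 Mb. No other protein-coding gene lies in the 536 kb between Sema3d and Sema3a, and 1 lies between Sema3a and Sema3e. Sema3b (chr9:107597674-107609229) and Sema3f (chr9:107681500-107710475) are on the minus strand of chromosome 9, 72.3 kb apart. Sema3g is at chr14:31217860-31230352 and Nrp1 at chr8:128358604-128503363, both on the plus strand. Nrp2 is at chr1:62703285-62818695 on the plus strand and Plxnd1 at chr6:115954811-115995005 on the minus strand.

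Sema3c and Sema3g, which differ in opposite directions between arterial and barrier-type endothelial cells below, and Sema3a and Sema3d, the main ligands of CSA fibroblasts, are shown by the 250 bases before their RefSeq transcription start (GRCm38.p6, plus strand). Capitals mark matches, on either strand, to 5 short motifs that were searched: TGGGAA (core of RBPJ sites), AGGTCA (half-site of COUP-TF factors such as Nr2f2), AGGAAG (ETS factors), ACAAT (SOX factors) and TATAAG (bound by TBP). The windows are chr5:17574566-17574815 for Sema3c, chr14:31217623-31217872 for Sema3g, chr5:13396534-13396783 for Sema3a and chr5:12382916-12383165 for Sema3d. The RefSeq start of Sema3a lies 271.4 kb inside the gene as given above, so its window is not that of the outermost annotated start.
Sema3c: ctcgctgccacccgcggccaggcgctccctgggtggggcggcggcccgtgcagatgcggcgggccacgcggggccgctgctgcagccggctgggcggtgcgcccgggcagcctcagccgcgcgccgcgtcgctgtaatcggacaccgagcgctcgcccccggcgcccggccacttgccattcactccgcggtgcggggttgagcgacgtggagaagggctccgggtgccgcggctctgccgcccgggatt
Sema3g: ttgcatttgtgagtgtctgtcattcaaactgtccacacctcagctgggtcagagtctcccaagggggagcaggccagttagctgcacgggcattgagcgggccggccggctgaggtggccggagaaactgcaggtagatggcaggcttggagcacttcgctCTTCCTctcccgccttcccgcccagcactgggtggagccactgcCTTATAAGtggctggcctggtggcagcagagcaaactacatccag
Sema3a: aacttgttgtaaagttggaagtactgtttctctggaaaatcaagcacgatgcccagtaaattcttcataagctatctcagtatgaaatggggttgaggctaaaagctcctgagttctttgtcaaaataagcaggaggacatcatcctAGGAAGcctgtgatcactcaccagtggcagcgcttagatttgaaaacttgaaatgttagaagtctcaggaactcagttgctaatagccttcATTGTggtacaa
Sema3d: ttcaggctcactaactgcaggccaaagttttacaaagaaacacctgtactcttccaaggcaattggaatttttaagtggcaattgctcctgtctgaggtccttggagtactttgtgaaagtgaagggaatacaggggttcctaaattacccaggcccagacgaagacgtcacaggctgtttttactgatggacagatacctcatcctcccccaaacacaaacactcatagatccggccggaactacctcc

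The Sema3c window held 39 CG dinucleotides, a number reached by 1.56% of the 32851 RefSeq promoter windows of this length, and none of the 5 motifs. The Sema3g window held 8 CG dinucleotides, with AGGAAG in reverse, which 29.5% of all windows hold in either orientation, and TATAAG in both orientations, which 6.65% hold in either. The Sema3a window held 2 CG dinucleotides, AGGAAG and, in reverse, ACAAT, the latter found in 27.7% of all windows. The Sema3d window held 4 CG dinucleotides and no motif. The median of all windows was 6 CG dinucleotides. A match of this kind is a description of letters and not of a binding site, and promoters of Sema3b and Sema3f were not shown.

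Barcodes under 500 genes or over 10% mitochondrial UMIs were dropped, which left 5272 CSA cells (739 to 2201 per library) and 3408 BA cells (956 and 2452). A UMI is the tag of a single captured mRNA molecule, and library medians of the kept cells were between 5461 and 9525 UMIs. Hemoglobin took 17.9% and 11.9% of the UMIs of kept cells in CSA libraries 3 and 4 and at most 0.525% elsewhere, and any pair of libraries shared 0 to 2 cell barcodes. Cell classes were named from marker genes, without any member, and 11.1% of the cells stayed unnamed. Levels are given as CPM, the UMIs of a gene scaled to a common total of UMIs for every class and library, in each library with at least 10 cells of it. Since only the 3′ ends of transcripts are counted, levels do not scale with gene length, but they are compared here within a gene and not between genes.

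Each receptor was found in more classes than any ligand. With the study's limit of 5% of cells with a UMI, and among classes of at least 20 cells with endothelial cells in 4 sub-groups, Sema3a passed in 1 of 19 CSA classes and 1 of 17 BA classes, both of them fibroblasts. Sema3e passed in no CSA class and in 2 BA classes, Sema3b in 2 and 2, and Sema3d in 1 and 3. Sema3c passed in 4 CSA and 5 BA classes, Sema3f in 4 and 6, and Sema3g in 3 and 4. Several of these classes are sub-groups of the endothelium, for Sema3g all of the CSA classes and for Sema3c all but neurons. Their number is thus raised by the split of the endothelium and does not show a wider expression than that of the other ligands. Nrp1 passed in 17 CSA and 15 BA classes, Plxnd1 in 12 and 14, and Nrp2 in 10 and 10. B cells, which gave no UMI of Sema3a, Sema3b, Sema3c, Sema3e or Sema3f, serve as a measure of free RNA for these ligands. Of the receptors, in CSA libraries 0.274% of them had a UMI of Nrp1, 0.822% of Nrp2 and 2.19% of Plxnd1, at a median of 3821 UMIs per cell, and in BA libraries 0%, 0.262% and 2.62% at 4840 UMIs. For Plxnd1 the Ms4a1- and the Vpreb3-led B cell cluster of CSA had 12.6 and 11.9 CPM (6 and 2 UMIs). The Ighd-led cluster had 1.17 CPM (1 UMI). These counts are too few to tell the clusters apart, and B cells are no clear measure for Plxnd1. NK cells gave 1 UMI of Plxnd1 in 169 CSA cells and 0 in 109 BA cells. T cells are no measure for the receptors either, since 12.05% of BA T cells had a UMI of Nrp1 and 19.1% of Plxnd1. With 0 of 382 BA B cells, a share of Nrp1 of up to 0.785% remains possible, and this limit and all intervals below cover counting error only.

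**Figure D1:**
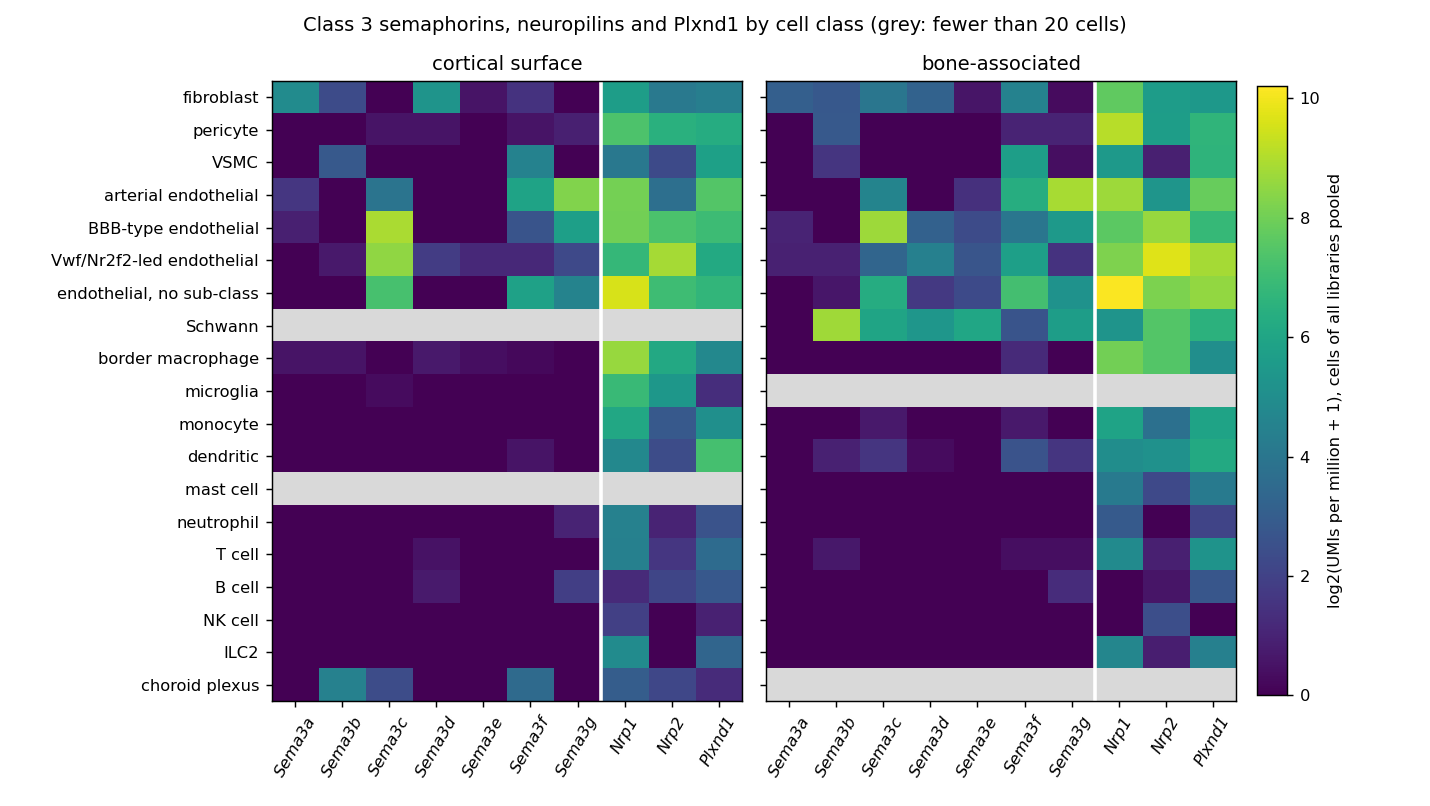
Level of each gene (columns, ligands left and receptors right of the white line) in each cell class (rows) of CSA and BA cells, as log2 of CPM plus 1 with the cells of all libraries pooled, in grey where a class has fewer than 20 cells. Sema3a is seen in fibroblasts, Sema3b in Schwann cells and Sema3g in arterial endothelial cells. Sema3c is seen in barrier-type (BBB-type) endothelial cells of both preparations and in Vwf- and Nr2f2-led endothelial cells of CSA libraries. Nrp1 is seen in nearly all stromal, vascular and myeloid classes.

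Sema3a, the founding repellent of the class, was measured mainly in fibroblasts. Its level in CSA fibroblasts was 36.2, 27.1, 22.4 and 28.5 CPM in libraries 1 to 4, and in BA fibroblasts 18.5 and 5.90 CPM. The lowest CSA library was thus above the higher BA library, but few counts lie behind this order. All kept cells of CSA libraries 3 and 4 held only 4 and 3 UMIs of Sema3a, and those of BA library 1 held 10. A UMI was found in 15.8% of 265 CSA fibroblasts (95% exact binomial interval 11.7 to 20.8%) and in 8.09% of 272 BA fibroblasts (5.14 to 11.99%), although the BA cells were deeper, with a median of 14703 UMIs per cell against 7592. Of the 111 Sema3a UMIs in all kept cells, 65 were in CSA and 31 in BA fibroblasts. CSA pericytes gave 0 UMIs among 2279219 and BA VSMCs (vascular smooth muscle cells) 0 among 3479643.

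Sema3d, expressed like Sema3a at low level, was highest in CSA fibroblasts and in BA Schwann cells. CSA fibroblasts had 11.52, 47.4, 11.2 and 105 CPM in libraries 1 to 4, a wide spread in which library 4 rests on 22 cells, and BA fibroblasts 1.85 and 9.27 CPM. The groups did not overlap, but the lowest CSA and the highest BA library were close. All kept cells of CSA library 3, the lowest, held only 4 UMIs of Sema3d. Schwann cells had 77.6 and 28.3 CPM. In CSA fibroblasts 33 cells held a UMI of Sema3a alone, 26 of Sema3d alone and 9 of both. Sema3d was also seen at 25.0 and 19.4 CPM in BA endothelial cells led by Vwf and Nr2f2, and at 45.4 CPM (13 UMIs) in an unnamed group of 24 CSA cells led by Slc1a2, Aldoc and Cspg5.

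Sema3b was foremost a gene of Schwann cells, the glia of peripheral nerves, which occurred in BA libraries only. It reached 288 and 477 CPM there, and 74.4% of 86 cells (63.9 to 83.2%) had a UMI. The choroid plexus cells of CSA libraries 3 and 4 had 17.1 and 14.8 CPM, and fibroblasts at most 6.59 CPM in any library. The 15 choroid plexus cells of BA libraries, with a median of 57070 UMIs, had 95.1 CPM in library 1, the 1 library with enough of them. Schwann cells had 5 ligands above 5% of cells (Sema3b, Sema3c, Sema3d, Sema3e and Sema3g), as many as BA fibroblasts (Sema3a, Sema3b, Sema3c, Sema3d and Sema3f).

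Sema3e, the ligand of Plxnd1, was the rarest member, with 59 UMIs in all kept cells. Schwann cells held 24 of these, at 99.8 and 53.0 CPM, in 20.9% of cells (12.9 to 31.0%). CSA classes of at least 20 cells together gave 5 UMIs, too few for any comparison.

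Sema3c and Sema3g went in opposite directions between arterial and blood-brain barrier-type endothelial cells. Sema3g reached 303, 357 and 302 CPM in arterial endothelial cells of CSA libraries 1, 2 and 4 (library 3 had only 5 such cells) and 656 and 378 CPM in BA libraries. In barrier-type (BBB-type) endothelial cells, which carry the transport genes Mfsd2a and Slco1c1, it was at 75.6, 41.2, 20.4 and 87.8 CPM in CSA and 80.3 and 13.5 CPM in BA libraries. The highest BBB-type library was thus below the lowest arterial one. Sema3c was reversed: BBB-type cells had 497, 464, 580 and 460 CPM in CSA and 387 and 442 CPM in BA libraries, against 39.9, 0 and 12.9 CPM in CSA and 26.0 and 22.2 CPM in BA arterial cells. A UMI of Sema3c was found in 79.5% of CSA BBB-type cells (72.9 to 85.0%) and 4.05% of CSA arterial cells (0.844 to 11.4%). The ligands were not exclusive, since 23 of the 28 CSA BBB-type cells with a UMI of Sema3g also held Sema3c, and 88 of 597 BA endothelial cells held Sema3c alone, 159 Sema3g alone and 32 both, so that most held neither.

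The test of this difference used the 5 libraries with at least 10 cells of both sub-groups, with the library as a block. Here and below, a gene was called changed at an adjusted p under 0.05 over all genes tested (edgeR's quasi-likelihood test with Benjamini-Hochberg adjustment) and a log2 fold change of at least 1.3 in either direction. Of the 7856 genes tested 8.67% were called, and of the 6 members tested 4 were called, all of which are ligands or Nrp2. In arterial cells Sema3g was 7.96-fold higher (log2 fold change 2.99 ± 0.32 SE, adjusted p = 2.32e-05) and Sema3f 6.83-fold higher (2.77 ± 0.32, adjusted p = 4.82e-05). Sema3c was 20.8-fold lower (log2 fold change -4.38 ± 0.33, adjusted p = 1.20e-06) and Nrp2 10.9-fold lower (-3.44 ± 0.24, adjusted p = 5.32e-07). These 4 directions were seen in the 3 CSA and in the 2 BA libraries when fitted apart. Plxnd1 was 1.77-fold higher in arterial cells, which passed the p but not the fold limit (log2 0.83 ± 0.21, adjusted p = 0.0175), and Nrp1 passed neither (log2 0.60 ± 0.21, adjusted p = 0.0873). Of the 43 other pathway genes, 17 were tested and none was called by edgeR, with 6 at an unadjusted p under 0.05 and 0 called by DESeq2.

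The third endothelial sub-group did not carry the label its markers had been collected for. It was led by Vwf, Nr2f2 and Vcam1, with Selp and Sele in BA libraries, and not by Plvap, and it is named here by its leading genes. Inflammatory genes such as Lcn2, Icam1 and Ptgs2 were among the leading genes of the CSA cells. The cells under this name also differed in barrier genes: the 8 BBB-type markers summed to between 9134 and 10832 CPM in the CSA libraries, against 11683 to 13436 CPM in CSA BBB-type cells, and to 926 and 1051 CPM in the BA libraries. Slco1a4 was at 1956 CPM in CSA and 166 CPM in BA cells pooled, and Slc2a1, the glucose transporter, at 1712 and 79.5 CPM, while Mfsd2a and Slco1c1 had no UMI in BA cells. Sema3c separated the preparations in these cells: libraries 1 to 4 of CSA had 351, 398, 264 and 362 CPM and BA libraries 9.36 and 9.04 CPM. Another sub-group, of 248 BA cells led by Esm1, Gpihbp1 and Igfbp3, matched no sub-class and had 111 and 64.2 CPM of Sema3c and 176 and 125 CPM of Sema3f, the highest pooled level of Sema3f among the classes. The 46 CSA endothelial cells without a sub-class were mixed, with 151, 32.3 and 0 CPM of Sema3f in libraries 2 to 4. These libraries gave 10, 10 and 25 of the cells, and hemoglobin took 0.0171%, 35.9% and 52.0% of their UMIs. CPM counts hemoglobin in the total, and its part in this spread was not tested.

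**Figure D2:**
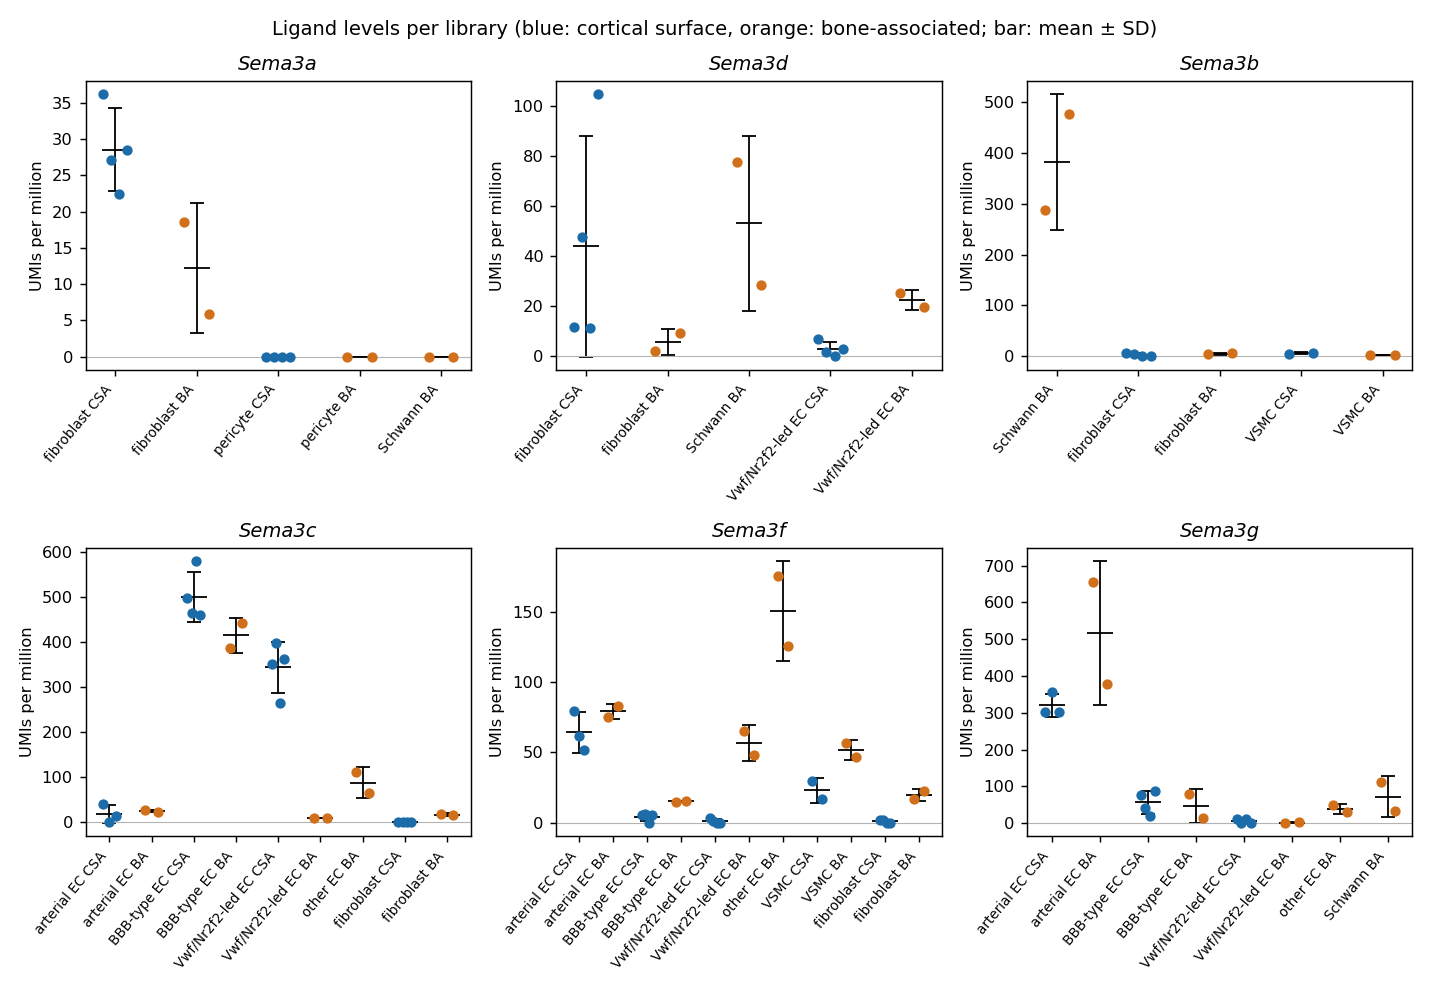
Ligand levels (CPM, vertical axis) in each library with at least 10 cells of a class (points, blue for CSA and orange for BA), with the mean ± SD of the libraries in black. The mixed CSA endothelial cells without a sub-class are not drawn. The arterial points of Sema3g and the BBB-type points of Sema3c stand clear of each other's, and Sema3c of Vwf- and Nr2f2-led cells is high in the 4 CSA libraries and near 0 in the 2 BA libraries.

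Sema3f was shared by vessels and their walls. Besides the endothelial cells, VSMCs had 29.4 and 16.8 CPM in CSA libraries 1 and 2, the only CSA libraries with VSMCs, and 56.7 and 46.5 CPM in BA libraries. Fibroblasts of BA libraries had 16.7 and 22.5 CPM, while the 4 CSA libraries together gave 4 UMIs, or 1.80 CPM (counting interval of the ratio of BA to CSA 4.54 to 45.2).

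Nrp1, which receives Sema3a and vascular endothelial growth factor, had its highest pooled level in the Esm1- and Gpihbp1-led BA endothelial cells, at 1466 and 996 CPM. The mixed CSA endothelial cells without a sub-class had 1882, 404 and 48.9 CPM in libraries 2 to 4, where hemoglobin took 0.0171%, 35.9% and 52.0% of their UMIs. Among the other named classes BA pericytes followed with 580 and 537 CPM. An unnamed group of 49 BA cells led by Nts, Actg2 and Vtn had 696 CPM pooled. Border macrophages had 386, 352, 464 and 536 CPM in CSA and 535 and 215 CPM in BA libraries, which overlap the range of BA arterial cells (455 and 391 CPM). CSA arterial cells (303, 284 and 244 CPM) and CSA BBB-type cells (281, 252, 295 and 253 CPM) did not differ beyond their spread. Microglia were lower, at 120, 98.1, 128 and 129 CPM, and CSA fibroblasts lower still, at 47.7, 51.2, 67.3 and 9.51 CPM.

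Nrp2, the receptor of Sema3f and Sema3g, had another order. It was highest in Vwf- and Nr2f2-led endothelial cells, at 518, 399, 556 and 433 CPM in CSA and 1001 and 751 CPM in BA libraries. BBB-type cells had 189, 130, 112 and 238 CPM in CSA and 368 and 411 CPM in BA libraries. Arterial cells, in which Sema3g is made, had 7.97, 5.57 and 25.7 CPM in CSA and 33.8 and 42.0 CPM in BA libraries. Schwann cells had 211 and 166 CPM and BA border macrophages 159 and 179 CPM, 2 levels that overlap. VSMCs were near the B cell level, with 3.84 CPM in CSA and 0.862 CPM in BA cells pooled.

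Plxnd1 was found in endothelial cells, mural cells and some immune cells. Vwf- and Nr2f2-led cells had 540 and 412 CPM in BA but 108, 71.6, 86.0 and 35.7 CPM in CSA libraries, and Esm1- and Gpihbp1-led cells 391 and 371 CPM. Dendritic cells of CSA libraries, at 251, 122, 151 and 127 CPM, overlapped CSA arterial cells (191, 212 and 135 CPM), and 69.1% of them had a UMI. VSMCs of BA libraries had 99.95 and 98.3 CPM. Microglia gave 7 UMIs of 4679967, in 0.974% of 719 cells (0.392 to 2.00%), which overlaps the 0.592% of CSA NK cells (0.0150 to 3.25%) and is not told apart from free RNA.

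Cells with UMIs of a neuropilin and of Plxnd1 together were found in many classes, most often in BA endothelial cells. In Vwf- and Nr2f2-led BA cells, 87 of 104 held Nrp2 and Plxnd1, and in the Esm1- and Gpihbp1-led cells 182 of 248 held Nrp1 and Plxnd1. After each cell was thinned to 1500 UMIs these counts were 26 of 102 and 73 of 246, so the shares depend strongly on depth. Before thinning, Nrp1 and Plxnd1 were together in 62.8% of all BA and 23.8% of all CSA endothelial cells. The share was 16.6% in Vwf- and Nr2f2-led CSA cells. Outside the endothelium it was 39.8% in BA pericytes, 32.4% in BA fibroblasts, 21.0% in CSA monocytes and 17.4% in CSA border macrophages.

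**Figure D3:**
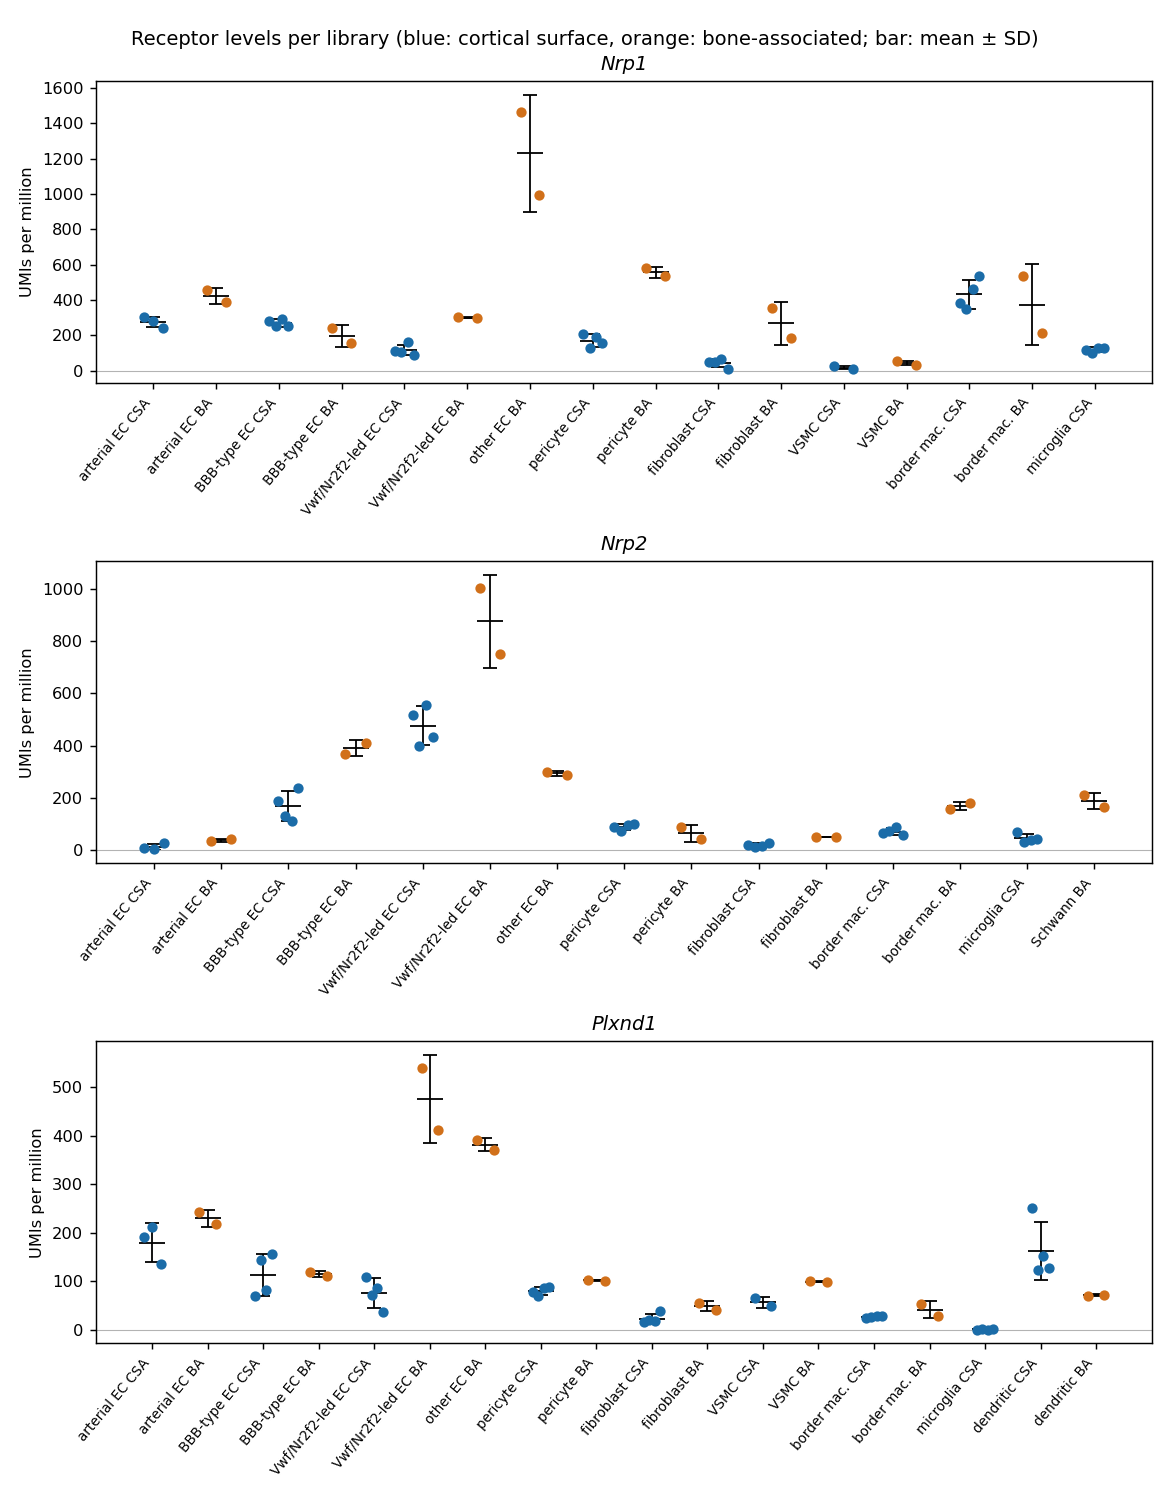
Receptor levels (CPM, vertical axis) per library and class, drawn as for the ligands and again without the mixed CSA endothelial cells. Nrp1 is high in BA pericytes, border macrophages and Esm1- and Gpihbp1-led cells (other EC), Nrp2 in Vwf- and Nr2f2-led cells, and Plxnd1 in the BA libraries of the same cells, while microglia lie near 0 for Plxnd1.

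The preparations were then compared within each class, which asks whether CSA cells differ from BA cells in what they send and receive. The groups are preparations and not pure tissues. In fibroblasts (4 CSA and 2 BA libraries), 9520 genes passed the detection filter (a UMI in more than 10% of cells on either side), and 15% were called, 5.71% higher and 9.26% lower in CSA. Of the 7 members tested, 2 were higher in CSA and 4 lower. A gene passes that filter through the group in which it is high, so this count is a description and not support for a property of the family. The same holds for the counts of members called in the other comparisons. The median log2 fold change of the 7 was -1.51, the value of Nrp2, against -0.04 over all genes tested. It rests on the same filter and is likewise a description only.

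Sema3a was 3.30-fold higher in CSA fibroblasts (log2 1.72 ± 0.47 SE, edgeR adjusted p = 0.00972) and Sema3d 4.71-fold higher (2.24 ± 0.60, adjusted p = 0.00934). Sema3c was not found in CSA fibroblasts (0 UMIs of 2219677) and had 18.5 and 14.6 CPM in BA fibroblasts, at least 11.2-fold higher when 3 counts are allowed to the CSA cells as a group (edgeR adjusted p = 1.05e-04). Sema3f was 10.9-fold lower in CSA (log2 -3.45 ± 0.62, adjusted p = 1.91e-04). Nrp1, at 354 and 183 CPM in BA fibroblasts, was 5.30-fold lower in CSA (-2.41 ± 0.34, adjusted p = 1.10e-05), with no overlap between libraries. Nrp2, at 50.1 and 48.6 CPM in BA and 13.6 to 28.5 CPM in CSA libraries, was 2.85-fold lower (-1.51 ± 0.36, adjusted p = 0.00352). Plxnd1 passed the p but not the fold limit (-1.22 ± 0.36, adjusted p = 0.0198). By the edgeR calls, CSA fibroblasts thus had more Sema3a and Sema3d and less Sema3c, Sema3f, Nrp1 and Nrp2 than BA fibroblasts.

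The calls of Sema3a, Sema3d and Nrp2 were lost with DESeq2 (adjusted p = 0.123, 0.146 and 0.0542), and that of Sema3a without BA library 2, which leaves BA library 1 with 32 cells (log2 0.77, adjusted p = 0.504). The call of Nrp2 was also lost without BA library 2 (-1.44, adjusted p = 0.0584) and fell under the fold limit without CSA library 2 (-1.26), while Plxnd1 passed it without CSA library 4 (-1.31). Sema3d no longer passed the detection filter without CSA library 2, nor Sema3c without BA library 2, so neither was tested there. The 10 endothelial markers summed to 348 to 570 CPM in CSA and 430 to 640 CPM in BA fibroblasts, against 16589 and 11511 CPM in endothelial cells, with Ramp2 the largest and 1 marker at 0 in CSA and none in BA cells. The 9 border macrophage markers, none at 0 in CSA and 3 at 0 in BA cells, summed to 38.0 to 1026 CPM and 5.56 to 7.02 CPM. Of the pericyte markers, Vtn was at 7410 CPM in CSA fibroblasts and the other 5 summed to 145 CPM, against 240 to 352 CPM for all 6 in BA libraries. The part of these transcripts in the differences was not tested.

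BA fibroblasts were not uniform in the members. In the 92 cells led by Apod, Lum and Aldh1a2, pooled levels were 33.0 CPM of Sema3c and 26.6 of Sema3d. In the 136 cells led by Comp, Chad and Matn4 they were 8.42 and 0.495 CPM, with 27.2 CPM of Sema3f against 12.9. Sema3a was alike in both, at 8.05 and 7.93 CPM, and Nrp1 was between 170 and 258 CPM in all 4 clusters of BA fibroblasts. The only cluster of CSA fibroblasts was led by Ptgds, Apod and Dcn, with Gjb6 and Gjb2 also among its leading genes. The paper lists Gjb6 and Gjb2 among its markers of leptomeningeal cells. Both were also leading genes of a BA cluster of 21 fibroblasts, which had 11.4 CPM of Sema3a (5 UMIs) and no UMI of Sema3d. The remaining BA cluster, of 23 cells led by Cyp2f2 and Mfap4, had no UMI of Sema3a. The comparison of CSA and BA fibroblasts without the Gjb6- and Gjb2-led cells was not tested.

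**Figure D4:**
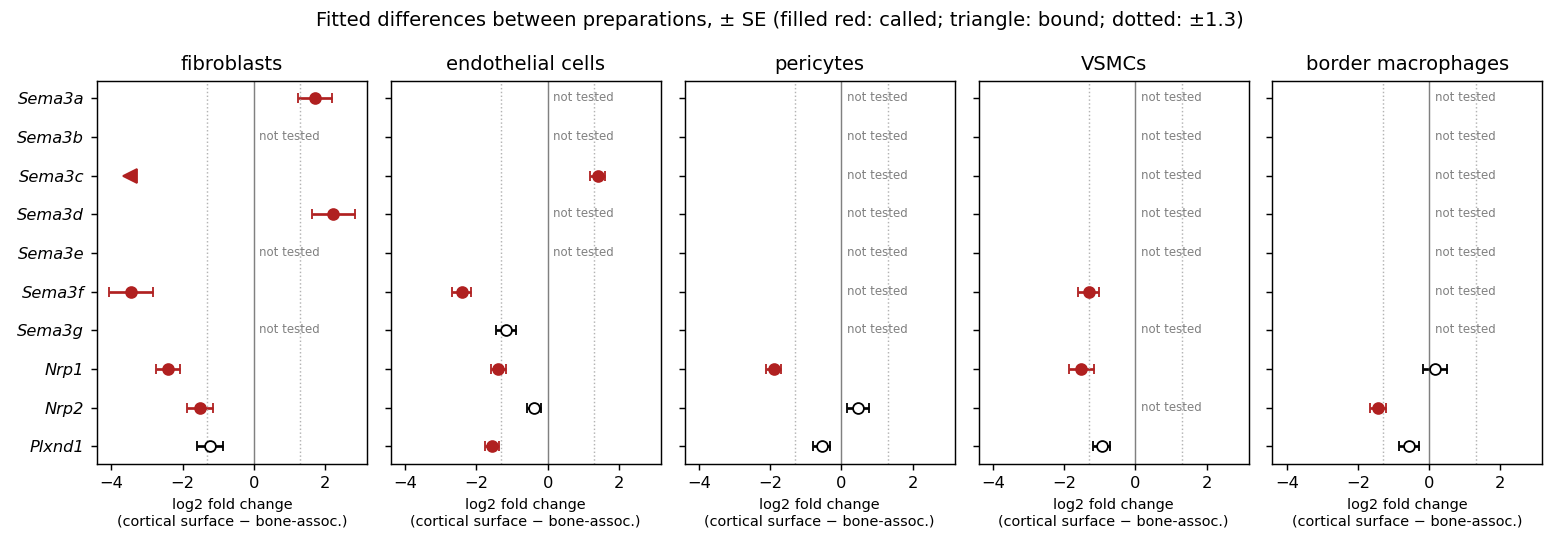
Fitted log2 fold change (horizontal axis, CSA minus BA, with its SE) of each member tested in 5 cell classes, filled red where called, with dotted lines at 1.3 in either direction. The triangle is the bound for Sema3c, which had no UMI in CSA fibroblasts, and Nrp1 lies left of the dotted line in fibroblasts, endothelial cells, pericytes and VSMCs but not in border macrophages.

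In endothelial cells, 6.4% of 7708 genes were called, and 4 of 6 members. Sema3c was 2.65-fold higher in CSA (log2 1.40 ± 0.21, edgeR adjusted p = 7.92e-05). Sema3f was 5.33-fold lower (-2.42 ± 0.27, adjusted p = 6.94e-06), Plxnd1 2.96-fold lower (-1.57 ± 0.19, adjusted p = 1.42e-05) and Nrp1 2.61-fold lower (-1.38 ± 0.21, adjusted p = 1.11e-04). Sema3g missed the fold limit (-1.17 ± 0.28, adjusted p = 0.00706) and Nrp2 missed both (-0.37 ± 0.20, adjusted p = 0.259). With the replicate number of the titles as a block, Nrp1 fell under the fold limit (-1.19, adjusted p = 9.53e-05), as it did without CSA library 4 (-1.24) or BA library 1 (-1.29). Sema3c fell under it without BA library 2 (1.20), where Sema3g passed it (-1.47), as it also did without CSA library 4 (-1.32).

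The make-up of the endothelial cells differed between preparations, with 248 of 597 BA cells in the Esm1- and Gpihbp1-led sub-group, so the comparison was repeated within sub-groups, a choice made after seeing the data. In arterial cells, 4.19% of genes and none of 5 members were called. DESeq2 was not run within sub-groups, and Nrp1 (-0.63 ± 0.26), Sema3g (-0.68 ± 0.27) and Nrp2 (-1.57 ± 0.61) had an unadjusted p under 0.05. In BBB-type cells, 2.45% of genes were called and 1 of 6 members, Nrp2, which was 2.51-fold lower in CSA (-1.33 ± 0.27, adjusted p = 0.00126), while Sema3c differed by only 0.15 ± 0.25. In Vwf- and Nr2f2-led cells, 13% of genes were called and 5 of 6 members. Sema3c was 32.4-fold higher in CSA (5.02 ± 0.36, adjusted p = 1.76e-09), and Plxnd1 7.37-fold (-2.88 ± 0.28, adjusted p = 9.70e-08) and Nrp1 3.01-fold lower (-1.59 ± 0.24, adjusted p = 3.33e-05). Sema3f, with 2 UMIs in CSA and 58 in BA cells, and Sema3d, with 4 and 23 UMIs, were also called lower. Since the Vwf- and Nr2f2-led cells of CSA carried the barrier genes and those of BA largely did not, this contrast compares cells that differ in barrier genes as well as in preparation, and the part of that difference in the calls was not tested. Whether the difference in Sema3c itself differs between the sub-groups was not tested either.

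In pericytes, the contractile cells of capillaries, 7.6% of 7372 genes were called and 1 of 3 members. Nrp1 was at 206, 129, 193 and 157 CPM in CSA and 580 and 537 CPM in BA libraries, a 3.76-fold difference (log2 -1.91 ± 0.21, edgeR adjusted p = 8.81e-06). Clusters with markers of both pericytes and VSMCs stayed unnamed and outside this comparison. Pooled Nrp1 was 305, 246 and 170 CPM in 53, 52 and 46 such BA cells. In 21 and 20 such CSA cells it was 109 and 86.3 CPM. The difference with these cells included was not tested. Nrp2 (0.47 ± 0.31, adjusted p = 0.420, and -0.057 without BA library 2) and Plxnd1 (-0.55 ± 0.24, adjusted p = 0.188) were not called. Of the 481 CSA pericytes 216 were in clusters led by Ccl19 or Colec11, and without such clusters the difference of Nrp1 was -1.83 ± 0.27. In VSMCs (2 libraries of each preparation), 5.86% of 8380 genes were called and 2 of 3 members. Nrp1, at 24.3 and 10.4 CPM in CSA and 53.3 and 34.1 CPM in BA libraries, was 2.86-fold lower in CSA (-1.52 ± 0.35, adjusted p = 0.00910). Sema3f was 2.49-fold lower (-1.31 ± 0.29, adjusted p = 0.00731). Plxnd1 passed the p but not the fold limit (-0.95 ± 0.25, adjusted p = 0.0219). Both VSMC calls were lost without CSA library 2 (-1.04 and -1.01, adjusted p = 0.126 and 0.137) and fell under the fold limit without BA library 1 (-1.21 and -1.22).

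Border macrophages gave another pattern. Of 7713 genes 5.99% were called, and of the 3 members Nrp2, which at 66.1, 71.5, 86.7 and 57.4 CPM in CSA and 159 and 179 CPM in BA libraries was 2.69-fold lower in CSA (-1.43 ± 0.23, adjusted p = 0.00336). Without BA library 2, which leaves BA library 1 with 15 cells, that call was lost (-1.15, adjusted p = 0.0961). Plxnd1 was not called (-0.57 ± 0.29, edgeR adjusted p = 0.275). Nrp1 did not pass the test (0.16 ± 0.33, adjusted p = 0.826), and its BA libraries, at 535 and 215 CPM, enclosed 3 of the 4 CSA libraries. Its sign turned without BA library 2 (-0.26), without CSA libraries 3 and 4 (-0.12) and with the replicate number as a block (-0.0022). The 9 border macrophage markers summed to 14147.5 CPM in CSA and 8689.4 CPM in BA border macrophages pooled. A cluster of 314 CSA cells led by H2-Eb1, H2-Aa and H2-Ab1 stayed unnamed and outside this comparison. The part of either in the differences was not tested.

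Border macrophages were also compared with microglia, the macrophages within the brain tissue, in the 4 CSA libraries with the library as a block. Of 7509 genes 16.8% were called, and 2 of 3 members. Nrp1 was 4.28-fold higher in border macrophages (log2 2.10 ± 0.11, edgeR adjusted p = 4.66e-13) and Plxnd1 was also higher (4.38 ± 0.44, adjusted p = 2.03e-08), at 24.9, 26.5, 27.3 and 28.7 CPM against at most 2.09 CPM in any library of microglia. With 168 UMIs against 7, the pooled ratio of Plxnd1 was 17.5 with a counting interval of 8.32 to 44.2. Nrp2 was 1.88-fold higher (0.91 ± 0.19, adjusted p = 4.73e-04), under the fold limit. No ligand reached 10% of the cells of either class. The border macrophages compared were those of clusters led by markers such as Pf4, Lyve1 and Mrc1. The unnamed cluster of 314 CSA cells led by H2-Eb1, H2-Aa and H2-Ab1 was in neither group here either. Its pooled levels were 139 CPM of Nrp1, 7.88 of Nrp2 and 30.8 of Plxnd1.

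Fibroblasts and pericytes of the same CSA libraries differed in ligands and receptors. Of 7979 genes 19.4% were called, and all 5 members tested, while the other 5 did not pass the detection filter. Sema3a and Sema3d passed it through fibroblasts only, so this count is a description. Sema3a, with 65 UMIs in fibroblasts and 0 in pericytes, was at least 22.2-fold higher in fibroblasts (edgeR adjusted p = 7.53e-09). Sema3d had 83 UMIs in fibroblasts and 1 in pericytes, a ratio of 85.2 with a counting interval of 14.9 to 3406, and without CSA library 2 it no longer passed the detection filter. The receptors went the other way: Nrp1 was 2.97-fold (-1.57 ± 0.22, adjusted p = 4.18e-08), Nrp2 4.29-fold (-2.10 ± 0.28, adjusted p = 1.21e-08) and Plxnd1 3.33-fold lower in fibroblasts (-1.74 ± 0.27, adjusted p = 7.61e-07). Without the Ccl19- or Colec11-led pericytes Plxnd1 fell under the fold limit (-1.15).

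The other genes of the pathway were 43 in number: 8 further plexins, 13 semaphorins of other classes, 4 adhesion co-receptors and 18 intracellular mediators. The adhesion co-receptors passed the detection filter in none of the 8 comparisons. The counts of pathway genes called are a description, since these genes too pass that filter through the group in which they are high. Between preparations, the share called over all genes tested was 15% in fibroblasts, 6.4% in endothelial cells and 7.6% in pericytes. It was 5.86% in VSMCs and 5.99% in border macrophages. In fibroblasts 23 of the 43 were tested, 3 were called higher and 2 lower in CSA. Plxna2, a plexin partner of the neuropilins, was higher in CSA (log2 2.49 ± 0.31, edgeR adjusted p = 1.83e-06), Mical2, an oxidase of actin filaments downstream of plexins, rose by 2.13 ± 0.34, and Plxnc1, the receptor of Sema7a, by 2.04 ± 0.38. Plxna4, the other main partner for Sema3a, was lower in CSA (-2.03 ± 0.42, adjusted p = 9.99e-04), as was Gipc1, an adaptor that binds the tail of Nrp1 (-1.43 ± 0.36). In endothelial cells 17 were tested and 2 were lower in CSA, the small GTPase Rnd1, which binds plexins (-2.51 ± 0.33), and the transmembrane Sema6d (-1.70 ± 0.24). Rnd1 was the 1 gene called among 20 in VSMCs (-1.98 ± 0.33). In pericytes 19 were tested, with Plxnb1 higher (1.77 ± 0.43) and Plxna2 (-3.27 ± 0.72) and Dpysl3 (-2.33 ± 0.46) lower in CSA. In border macrophages 17 were tested, and Sema4c (-1.65 ± 0.31) and Sema4a (-1.38 ± 0.24) were lower in CSA.

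Border macrophages and microglia differed in 9 of 17 tested pathway genes, 4 of them higher in border macrophages, where 16.8% of all genes tested were called. Plxnc1, with 245 UMIs against 2, and Sema4a (4.86 ± 0.34) were higher in border macrophages, and Sema4g (-5.06 ± 0.51), Mical3 (-2.37 ± 0.42), Plxna4 (-2.36 ± 0.21) and Sema4d (-2.34 ± 0.17) higher in microglia. Fibroblasts and pericytes differed in 15 of 20, 6 of them higher in fibroblasts, where 19.4% of all genes tested were called. Plxna2 was at 396 CPM in CSA fibroblasts against 1.62 CPM in pericytes (log2 7.43 ± 0.31) and Plxnc1 had 121 UMIs against 0. Sema6d (-3.75 ± 0.25) and Plxnb1 (-2.84 ± 0.42) were higher in pericytes, and Mical2 (4.07 ± 0.37) and Mical3 (3.08 ± 0.30) in fibroblasts.

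Genes outside these lists were ranked by how closely their level followed that of a member over 38 means of class and preparation, by Pearson's r on log2 of CPM plus 10, as a description without a test. The means share libraries and depth, and r of a gene seen in few classes rests on those classes. Sema3g was followed most closely by Fbln2 (r = 0.91), and Sema3c by Srarp (0.93), Fam57a (0.93) and Aqp11 (0.91). Sema3b was followed by Sfrp5 (0.97), Dusp15 (0.97) and Ccdc13 (0.97), and Sema3e by Kcna6 (0.97), all of which had their highest mean in Schwann cells. Sema3f was followed by Syt15 (0.88), Nrp1 by Lrp5 (0.86) and Bmpr2 (0.84), Nrp2 by Dusp23 (0.84) and Gpr146 (0.84), and Plxnd1 by Ece1 (0.87), the endothelin-converting enzyme. Sema3d was followed by Col11a2 (0.86), Gria3 (0.86) and Slc2a13 (0.85). The 3 genes ranked first for Sema3a had 5 to 7 UMIs in all, too few to be read.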

How the data were processed

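Cells of adult mouse cortical surface and of dura and skull were measured by droplet single-cell RNA sequencing in 6 libraries. The authors deposited raw UMI counts per gene and cell, aligned to mm10. The submitters' processing notes name Cell Ranger 3, while the matrix headers name 6.1.2. Barcodes under 500 genes or over 10% mitochondrial UMIs were dropped, and simulated-doublet scores removed 4 to 50 cells per library. Cells were clustered per preparation (2000 variable genes, 30 components, Leiden resolution 1.5) without the members, other pathway genes, mitochondrial and hemoglobin genes, and named from fixed marker lists. The resolution that split endothelial cells (0.3) was chosen after the clusters were seen. The 10 members and all lists were chosen with earlier results of these data known. All members, and up to 6 called pathway genes per comparison by absolute log2 fold change, are named.

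UMIs were summed per library and class, with at least 10 cells, and tested with edgeR 4.0.16 (quasi-likelihood, TMM, R 4.3.3) over genes with a UMI in more than 10% of cells on either side. The p-values measure only the spread between libraries, each of which pools mice. The script was tested on simulated data. Alternatives were DESeq2 1.42.0, RLE size factors, no detection filter, at least 1000 genes per cell, no doublet removal, clustering per library, thinning to 1500 UMIs, leaving out each library, and blocks for the library or the replicate number. Shares have exact binomial 95% intervals. Promoter sequences come from RefSeq (GRCm38.p6), in which 8 of 10 members were matched.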

Additional observations from a re-analysis of the deposited data

Results flagged for a closer look

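The level of Plxnd1 in fibroblasts of CSA library 4 was 38.0 CPM, far from the 16.5 to 19.6 CPM of the other 3 CSA libraries. The library holds 22 fibroblasts, and fibroblasts of all CSA libraries together gave 43 UMIs of Plxnd1, so this level rests on few counts. Whether it differs beyond counting error was not tested. Of 29 groups of 4 libraries examined in this way 1 stood out, and chance gives about 1 in 20.

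The difference of Nrp1 between arterial and BBB-type endothelial cells was not the same in both preparations, by a test of the difference itself. Arterial cells exceeded BBB-type cells by 0.18 ± 0.22 (log2, SE) in the 3 CSA libraries and by 1.15 ± 0.19 in the 2 BA libraries, so that CSA minus BA was -0.95 ± 0.30 (edgeR's quasi-likelihood interaction test, adjusted p = 0.0352 over 7856 genes). It stayed under the fold limit of 1.3, which with that p called 4.2% of genes. No other member of the 6 tested had an adjusted p under 0.05, the nearest being Sema3g (-1.08 ± 0.39, adjusted p = 0.0870).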

How the results depend on the processing

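Of 564 values of members under alternative settings, 523 kept their direction and their side of the thresholds, 28 lost and 6 gained the call, and 7 turned direction, none of them past the thresholds. A member that failed the detection filter under a setting was not tested there and is not among the 564. Calls that ended in this way are thus not among the 28.

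Thinning to 1500 UMIs per cell left fewer genes over the detection filter. It gave 593 called genes and 1 member in fibroblasts, 257 genes in endothelial cells, 198 in pericytes, 168 genes and 0 members in VSMCs, 133 and 0 in border macrophages, 278 genes between arterial and BBB-type cells, 641 genes and 1 member between border macrophages and microglia, and 795 and 3 between fibroblasts and pericytes. Shares of cells with a UMI became 3.56% for Sema3a in CSA fibroblasts, 49.4% for Sema3b, 2.47% for Sema3d and 9.88% for Sema3e in Schwann cells, 43.2% for Sema3c in CSA BBB-type cells, 8.33% for Sema3f and 50% for Sema3g in BA arterial cells, 52.0% for Nrp1 in BA pericytes, and 61.8% for Nrp2 and 42.2% for Plxnd1 in BA Vwf- and Nr2f2-led cells. Nrp2 in endothelial cells turned to 0.10.

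DESeq2 called 3 members in fibroblasts. Without the detection filter, more genes were tested and 779 were called in endothelial cells and 2341 between border macrophages and microglia. Clustering each library on its own gave 102 called genes between arterial and BBB-type cells, 1 member in VSMCs, 414 CPM of Sema3c in CSA BBB-type cells and 31.5 CPM of Sema3e in Schwann cells, and without doublet removal Sema3f was at 71.9 CPM in BA arterial cells; the cause was not tested. Within endothelial sub-groups 324 genes and 0 members (arterial), 198 and 1 (BBB-type) and 1051 genes (Vwf- and Nr2f2-led) were called, and Nrp1 (0.35) and Sema3g (0.21) turned in BBB-type cells.

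With a library left out, called genes and members were 1167 to 1427 and 3 to 7 in fibroblasts, 417 to 530 and 3 to 4 in endothelial cells, 414 to 582 and 1 in pericytes, 460 to 571 and 0 to 2 in VSMCs, 209 to 483 and 0 to 1 in border macrophages, 576 to 668 and 4 between arterial and BBB-type cells, 1191 to 1361 and 2 between border macrophages and microglia, and 1526 to 1608 and 4 to 5 between fibroblasts and pericytes. Where an arm keeps 1 library, that library is assumed to vary like the others. Nrp2 in pericytes was between -0.057 (without BA library 2) and 0.87, and Nrp1 in border macrophages between -0.26 (without BA library 2) and 0.82. The latter was -0.12 without CSA libraries 3 and 4.

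The titles number libraries 1 and 2 in both preparations, but nothing says that a number marks a shared batch. For same-numbered libraries, deviations from the mean of their preparation correlated over genes at 0.0160 to 0.446. In VSMCs, with 2 libraries of each preparation, both numbers give the same value by construction. With the replicate block, 1492 genes were called in fibroblasts, 470 in endothelial cells, 575 in pericytes, 567 in VSMCs and 367 in border macrophages. Nrp1 in border macrophages turned to -0.0022, and the block ended 1 call of a member, Nrp1 in endothelial cells (-1.19).

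Depth limits Sema3a, Sema3d and Sema3e most, with 59 to 201 UMIs in all, and BA fibroblasts and border macrophages rest largely on library 2.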
